A study of Mus musculus with 6 samples.

Results

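Serine, one-carbon and nucleotide synthesis was followed through 39 named mouse genes, listed by symbol for their enzymatic role, with earlier results of these data known, out of 55401 annotated genes. All 39 were found in each of the 6 deposited RNA-seq profiles and all passed the filter on low reads. The profiles came from primary cancer cell lines: 3 lines grown out of tumours of mice labelled Rag1KO (lines 1, 3 and 7) and 3 out of tumours of mice labelled WT (lines 2, 4 and 6), all on the C57BL/6 strain. The tumour tissue had been broken up mechanically and with enzymes (dispase, collagenase, then trypsin), and the cells were expanded in serum-containing DMEM, so each profile is of cultured cells and not of a tumour in its host. Rag1 is needed to assemble antigen receptors, and mice without it lack mature T and B cells. The series asked how transcription in tumour cells differs when the tumour arose with or without adaptive immunity. The labels give neither the tumour type, how the tumours were induced, nor the age or sex of the hosts, and do not say that every line came from a different animal, so a p-value here measures the spread between these lines only.

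Serine made from a glycolytic intermediate donates a carbon unit to folate and is turned into glycine in the same step. Folate-bound carbon then enters purine rings, the methyl group of thymidylate and, through methionine, methylation reactions, while the pentose phosphate pathway provides NADPH and the ribose phosphate on which nucleotides are built. Dividing cells use these routes to make DNA and RNA, and several of the enzymes are abundant in tumours and in cultured cells.

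Libraries held 55409583 to 62998051 reads over genes, and values are the authors' normalized counts, meaning whole reads divided by a single size factor per library. Rag1 reads were seen only in the lines labelled Rag1KO, with 41, 109 and 183 reads in lines 1, 3 and 7, against 0 reads in each line labelled WT. The labels do not say which stretch of Rag1 was deleted, and Rag2 had 0 reads in all 6. The groups therefore keep the wording of their labels below. Line 6 labelled WT stood apart: its Pearson r with the other libraries across tested genes was 0.759 to 0.814, against 0.902 to 0.943 among the other 5, and Col1a1 and Thy1, fibroblast genes at or above 478322 and 29802 normalized counts in each other line, had 206 and 0.88 normalized counts in it. Group values are therefore also given without it where it moved them. With WT line 6 left out, every line labelled Rag1KO had RNA of Y-linked genes. The remaining lines labelled WT had RNA of Xist, which marks an inactive X chromosome (values below). Label and sex therefore cannot be told apart in values given without WT line 6. Of 8 leukocyte markers, 4 (Adgre1, Itgam, Tyrobp and Cd3e) were at or under 3 reads in every line. Of the other 4, Lyz2 had 0 to 1558 reads, Csf1r 5 to 370, Cd68 78 to 148 and Ptprc 0 to 4. The 8 summed to 313 to 1780 normalized counts in the lines labelled Rag1KO, against 132 to 731 in the lines labelled WT. Of 7 mesenchymal markers, none was at or under 3 reads in every line. Their sum was 1.44e+06 to 2.28e+06 in the lines labelled Rag1KO, against 494206 to 1.98e+06 in those labelled WT. Beside Col1a1 and Thy1, WT line 6 was the lowest line for Col1a2 and Pdgfrb, at 151806 and 8208 normalized counts. For Vim, Col3a1 and Pdgfra, at 191379, 126015 and 16592, WT line 6 lay inside the range of the other lines. Epithelial markers summed to 13.6 to 49.8 in the lines labelled Rag1KO and 9.68 to 347 in those labelled WT. Epcam was at or under 3 reads in every line. Cdh1, Krt18 and Krt8 were highest in WT line 4, at 158, 126 and 58.9 normalized counts. Krt5 had 0 to 15 reads and Krt14 0 to 4. The 5 melanocyte markers summed to 462 to 1770 in the lines labelled Rag1KO and 638 to 2253 in those labelled WT. Of these, Tyr and Dct were at or under 3 reads in every line. Mitf had 426 to 2226 reads, Pmel 42 to 115 and Mlana 0 to 58. Endothelial markers summed to 69.5 to 240.3 in the lines labelled Rag1KO and 20.2 to 205 in those labelled WT.

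None of the 39 genes passed an adjusted p of 0.05 between the groups. In the limma fit on log2(normalized count + 1) over 16137 genes, 1 gene, not one of the 39, was called (0.0062% of those tested), and the smallest adjusted p among the 39 was 0.85. At an unadjusted p under 0.05, limma singled out 1 of the 39, Taldo1, beside 4.67% of all tested genes. edgeR's quasi-likelihood test called 0 of the 39 and 0.0% of all genes, and DESeq2 called 0 of the 39 and 0.41% of the 15863 genes it gave an adjusted p; at an unadjusted p under 0.05 each of these tools picked 0 of the 39. In cultures measured in bulk, fewer cells of a type and less RNA per cell cannot be told apart.

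Fitted values lay below 0, meaning lower in the lines labelled Rag1KO, for 31 of the 39 genes and above 0 for 8, with a median log2 fold change of −0.27. Over all 16137 tested genes 8071 were lower and 8066 higher, around a median of −0.0003. Without WT line 6 the same count was 23 lower and 16 higher, with a median of −0.12, against a median of −0.020 over all genes tested. The groups did not overlap for 2 of the 39, Taldo1 and Paics, both lower in the Rag1KO-labelled lines, where 6.49% of all tested genes were lower in the same sense; 0 of the 39 lay wholly higher, beside 5.6% of all tested genes. With 1 line fewer to separate, the number wholly lower was 9 without WT line 4, beside 12.1% of all tested genes under the same omission. It was 6 without Rag1KO line 1, beside 10.8%, and 5 without Rag1KO line 7, beside 11.5%. The remaining omissions gave fewer: 2 without Rag1KO line 3, beside 10.9%, 3 without WT line 2, beside 12.2%, and 3 without WT line 6, beside 11.2%. The median standard error was 0.34 on the log2 scale for these genes and 0.40 over all tested genes.

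**Figure D1:**
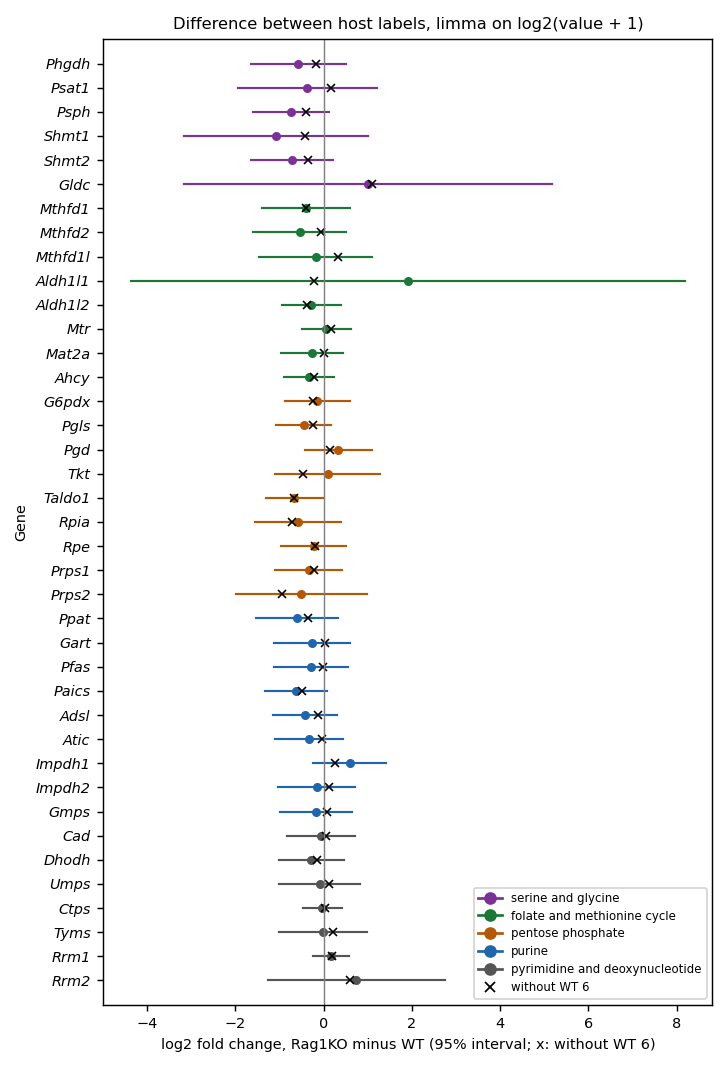
Log2 fold change (Rag1KO minus WT, on log2(normalized count + 1)) of each of the 39 genes by role, with its 95% interval from limma; crosses repeat the value without WT line 6. Marks to the left of 0 are lower in the lines labelled Rag1KO; 31 of 39 lie there with all lines and 23 of 39 without WT line 6.

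Single lines held many of the extreme values. WT line 6 held the highest value for 20 of the 39 genes, 51.3%, while it was highest for 27.4% of all tested genes. Rag1KO line 3 held the lowest value for 18 of the 39, 46.2%, against 16.5% of all tested genes. The 39 genes together took 0.425, 0.292 and 0.418% of reads in lines 1, 3 and 7 labelled Rag1KO, against 0.4, 0.377 and 0.589% in lines 2, 4 and 6 labelled WT. The low line 3 was also lowest for 13 of 15 proliferation genes, and the part of proliferation in these values was not tested. For the typical gene of the 39 the highest line was at 2.34 times the lowest. Over all tested genes it was 2.46 times, there with 1 added to both values, which narrows the range of genes with few reads.

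**Figure D2:**
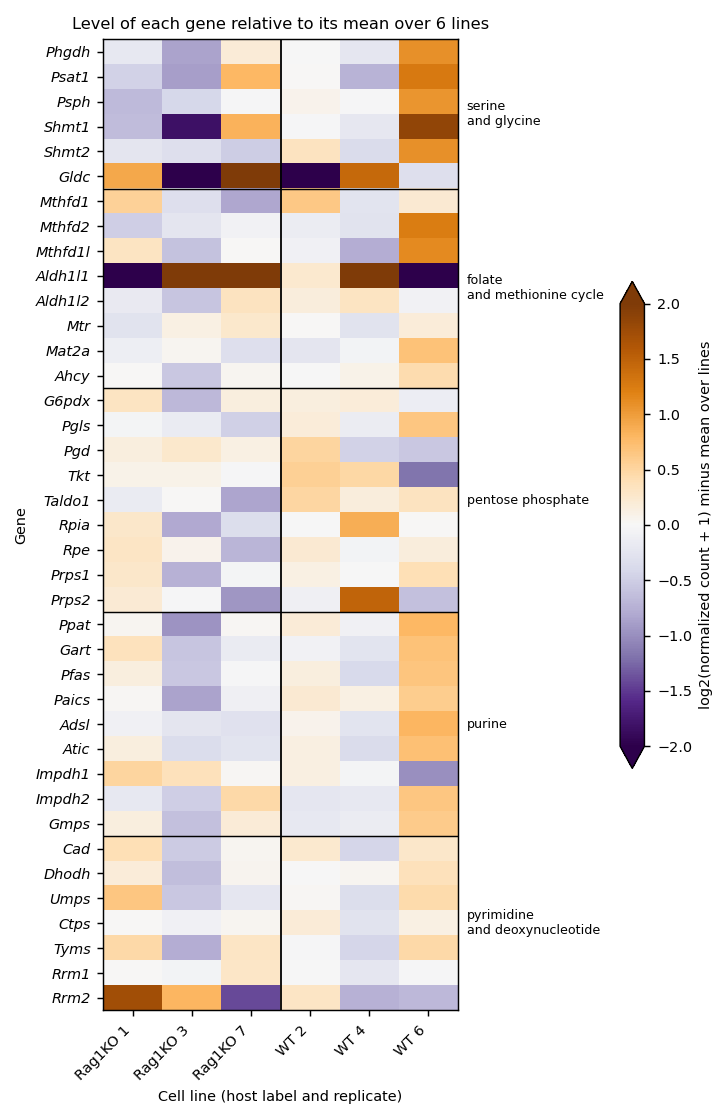
Each of the 39 genes in each line, as log2(normalized count + 1) minus that gene's mean over the 6 lines, with lines labelled Rag1KO on the left and WT on the right and genes grouped by role. The column of WT line 6 is the highest of its row for 20 genes and that of Rag1KO line 3 the lowest for 18.

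Levels between genes were compared per kilobase of exon (mean normalized counts over the 6 lines divided by the length of all annotated exons). The serine genes Shmt2, Phgdh and Psat1 led, at 5627, 5563 and 4309 per kilobase, followed by the purine enzyme Paics at 4276. The folate and methionine gene of highest level was Mat2a, at rank 5. At the other end, Dhodh stood at 106 and Gldc at 4.61 per kilobase. Psph, the last enzyme of serine synthesis, was only at rank 30 of 39 although the enzymes before it were at ranks 2 and 3. Shmt1 and Gldc, of the same group, were at ranks 34 and 39. The length counts the exons of every annotated isoform, so ranks between genes depend in part on the annotation.

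Serine synthesis begins when Phgdh oxidises 3-phosphoglycerate. Phgdh (chr3:98313170-98339990, minus strand, GRCm38) had 11059.8, 7059 and 14484 normalized counts in the lines labelled Rag1KO, against 12639.7, 10811 and 26929.9 in the lines labelled WT. Its highest and lowest lines were WT line 6 and Rag1KO line 3, and the groups overlapped, with a log2 fold change of −0.57 (SE 0.44), or −0.17 without WT line 6. Psat1, the transaminase of the next step, had 11401, 8528 and 27072 in the Rag1KO-labelled lines, against 15738, 9448 and 37796 in the WT-labelled lines. Both groups held a line well above the others, Rag1KO line 7 and WT line 6, and the log2 fold change was −0.36 with all lines but 0.18 without WT line 6.

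Psph, the phosphatase that releases serine, had the lowest p of the serine and glycine genes. It lies at chr5:129765558-129787449, minus strand (GRCm38) and had 1224, 1454 and 1920.1 normalized counts in the lines labelled Rag1KO, against 2049, 1919.5 and 4023 in the lines labelled WT. Rag1KO line 7 and WT line 4 were almost equal, and no other lines of the groups crossed. The means were 1533 ± 355 in the Rag1KO-labelled lines and 2664 ± 1179 in the WT-labelled lines (SD, n = 3 each), and the log2 fold change of −0.74 (SE 0.35, 95% interval −1.60 to 0.13) had an adjusted p of 0.85 by limma; without WT line 6 it was −0.40.

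Serine and glycine are exchanged by Shmt2 in mitochondria and Shmt1 in the cytosol. Shmt2 had 13661, 12864 and 11298 in the Rag1KO-labelled lines, against 20359.9, 12506 and 34280.1 in the WT-labelled lines. The Rag1KO-labelled lines lay close together, and 1 line, WT 6, was far above the rest; the log2 fold change was −0.71 with it and −0.34 without it. Shmt1 varied most of the Shmt pair, with 412, 183 and 1153 in the Rag1KO-labelled lines, against 635, 561 and 2339 in the WT-labelled lines, a range of 12.8-fold from Rag1KO line 3 to WT line 6. Its log2 fold change of −1.08 was −0.43 without WT line 6. Gldc, the glycine decarboxylase of the cleavage system that breaks glycine down, was close to the detection limit in several lines, with 22, 1.16 and 104 in the Rag1KO-labelled lines, against 1.01, 31.9 and 8.8 in the WT-labelled lines, where a count of 0 would allow up to 3 reads. The lowest of these, in WT line 2, rests on 1 read, so the fitted fold change of Gldc depends on the 1 added before the logarithm. It is not interpreted on its own here, but Gldc stays in the counts, medians and ranges given. Over the 6 genes of this group 0 passed limma's adjusted p, 5 of 6 were lower in the Rag1KO-labelled lines (4 of 6 without WT line 6), that line was the highest for 5 of 6, and the median log2 fold change was −0.64, or −0.26 without WT line 6.

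Carbon units bound to folate are interconverted by Mthfd1 in the cytosol and by Mthfd2 and Mthfd1l in mitochondria, the last of which releases formate to the cytosol. Mthfd1 had 6447, 3571 and 2523 in the Rag1KO-labelled lines, against 6893, 3716 and 5182 in the WT-labelled lines. Line 1 labelled Rag1KO and line 2 labelled WT were the highest, and the groups overlapped. Mthfd2 had 4463, 5340.3 and 5981 in the Rag1KO-labelled lines, against 5696, 5192 and 14883 in the WT-labelled lines. The other 5 lines lay between 4463 and 5981, and WT line 6 stood at 14883; the log2 fold change was −0.54, or −0.058 without that line. Mthfd1l, with a log2 fold change of −0.18, reached 8603 in WT line 6 and changed sign to 0.34 without it.

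Aldh1l1 and Aldh1l2 burn formyl-folate to carbon dioxide, the first in the cytosol and the other in mitochondria. Aldh1l1 was the most variable of the 39, with 20.1, 2899 and 1417 in the Rag1KO-labelled lines, against 269.9, 959.8 and 5.28 in the WT-labelled lines, a 549-fold range. Its highest line, Rag1KO 3, and next highest, Rag1KO 7, lay in the group that also held the second lowest, Rag1KO 1, and the log2 fold change of 1.91 had a standard error of 2.56 and was −0.20 without WT line 6. Aldh1l2 by comparison lay between 9598 and 18170.2 in all lines.

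In the methionine cycle, Mtr regenerates methionine, Mat2a turns it into S-adenosylmethionine and Ahcy splits S-adenosylhomocysteine, the product of methylation. Ahcy had the lowest p of this group, 0.2 by limma before adjustment, with 7186, 4857 and 7278 normalized counts in the lines labelled Rag1KO, against 7099.8, 7508 and 9547 in the lines labelled WT. The lowest line was Rag1KO 3 and the highest WT 6, with overlap between, and the log2 fold change was −0.33 (SE 0.23), or −0.21 without WT line 6. Mat2a was at 10239 to 13205 in the Rag1KO-labelled lines and at 10857 to 20756 in the WT-labelled lines, and Mtr at 1472 to 2125 in the Rag1KO-labelled lines and 1461 to 2005 in the WT-labelled lines. Over the 8 genes, 0 passed limma's adjusted p, 6 were lower in the Rag1KO-labelled lines (5 without WT line 6), and the median log2 fold change was −0.27, or −0.13 without WT line 6.

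Glucose 6-phosphate enters the pentose phosphate pathway through the NADPH-making dehydrogenases G6pdx and Pgd, with the lactonase Pgls between them, and Rpia, Rpe, Tkt and Taldo1 shuffle the sugar phosphates back towards glycolysis. Prps1 and Prps2 then load ribose phosphate as PRPP for nucleotides. Taldo1, the transaldolase, was 1 of the 2 genes whose groups did not overlap: it lies at chr7:141392199-141402968, plus strand (GRCm38) and had 4627, 5172 and 2875 normalized counts in the lines labelled Rag1KO, against 7281, 5778 and 6524 in the lines labelled WT. All 3 Rag1KO-labelled lines were below all 3 WT-labelled lines, and Rag1KO line 7 was the lowest. The means were 4225 ± 1200.1 in the Rag1KO-labelled lines and 6528 ± 752 in the WT-labelled lines (SD, n = 3 each), a log2 fold change of −0.67 (SE 0.26, 95% interval −1.31 to −0.021), which was −0.41 without Rag1KO line 7. Its adjusted p over all genes was 0.85 in limma's fit, where the unadjusted value was 0.0449. The edgeR fit gave an adjusted p of 0.891 and DESeq2 of 0.804.

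The promoter window of Taldo1, 250 bases before to 50 after the annotated start (RefSeq, GRCm38.p6; chr7:141391910-141392209, plus strand), is shown for that non-overlap, and that of Psph (chr5:129787204-129787503, minus strand) for its near-separation. Capitals mark CCAAT, searched on both strands.
Taldo1: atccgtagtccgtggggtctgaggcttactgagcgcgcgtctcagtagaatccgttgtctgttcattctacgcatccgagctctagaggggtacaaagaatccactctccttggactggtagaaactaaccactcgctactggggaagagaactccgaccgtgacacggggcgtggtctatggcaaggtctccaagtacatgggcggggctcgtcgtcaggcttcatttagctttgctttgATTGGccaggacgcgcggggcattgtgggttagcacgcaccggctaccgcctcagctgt
Psph: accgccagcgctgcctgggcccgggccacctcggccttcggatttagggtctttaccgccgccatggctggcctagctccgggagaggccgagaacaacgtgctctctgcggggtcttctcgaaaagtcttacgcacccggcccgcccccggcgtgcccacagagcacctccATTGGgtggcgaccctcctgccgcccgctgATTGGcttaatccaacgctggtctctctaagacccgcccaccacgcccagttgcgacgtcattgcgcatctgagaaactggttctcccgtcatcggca
CCAAT letters occurred in 21 of the 40 windows of the 36 genes with one in the table (52.5%), and in 37.4% of all 32851 windows. Such a match is a run of letters and not a bound site.

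Tkt, the transketolase, had 19235, 19222 and 17926 in the Rag1KO-labelled lines, against 26759.8, 25378 and 8022 in the WT-labelled lines. Its lowest line was WT 6, and it lay between 17926 and 26760 in the other 5; the log2 fold change was 0.094 with all lines, but −0.082 by edgeR and −0.084 by DESeq2, and −0.47 without WT line 6. G6pdx had 8949.6, 4464 and 7868 in the Rag1KO-labelled lines, against 7880.3, 8118 and 6528 in the WT-labelled lines, with Rag1KO line 3 alone low. Pgd had 10022, 10772 and 9777 in the Rag1KO-labelled lines, against 12845, 6582 and 6175 in the WT-labelled lines. The Pgd values of the Rag1KO-labelled lines lay close together, with WT line 2 above and WT lines 4 and 6 below them. Pgls and Rpe had log2 fold changes of −0.45 and −0.22, with overlapping groups, and without WT line 6 these were −0.24 and −0.20.

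Rpia, the isomerase that makes ribose 5-phosphate, had 968, 457 and 633 in the Rag1KO-labelled lines, against 794, 1452 and 806 in the WT-labelled lines. Prps2 had 3507, 2988 and 1578 in the Rag1KO-labelled lines, against 2811, 8429 and 1982 in the WT-labelled lines, with WT line 4 alone high, and Prps1 2138, 1052 and 1723 in the Rag1KO-labelled lines, against 1921, 1753 and 2328 in the WT-labelled lines. Prps2 had a log2 fold change of −0.50, or −0.93 without WT line 6. Prps1, Prps2 and G6pdx are X-linked, and Xist RNA, which marks an inactive X chromosome, was at 15.3, 3.48 and 1.94 in the Rag1KO-labelled lines, against 59775, 32733 and 5.28 in the WT-labelled lines. Ddx3y, a Y-linked gene, was at 2945, 5332 and 2156 in the Rag1KO-labelled lines, against 2.01, 0.97 and 4345 in the WT-labelled lines, and Kdm5d and Uty likewise had reads in all 3 Rag1KO-labelled lines and in WT line 6 but 0 reads in WT lines 2 and 4. Eif2s3y, also Y-linked, differed in WT line 6. It had 2201, 2541 and 1484 reads in the Rag1KO-labelled lines, against 0 reads in each WT-labelled line, line 6 included. The part of sex in the values of any gene was not tested. Without WT line 6, all Rag1KO-labelled lines had Y-linked reads and the remaining WT-labelled lines had Xist RNA. Label and sex therefore cannot be told apart in the values given without that line, including the −0.93 of Prps2. Over the 9 genes of the group, 0 passed limma's adjusted p, 7 were lower in the Rag1KO-labelled lines (8 without WT line 6), and the median log2 fold change was −0.34, or −0.24 without WT line 6 and −0.55 without Rag1KO line 1.

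Purine rings are built on PRPP, from the committed step by Ppat through Gart, Pfas, Paics and Adsl to Atic, which closes the ring of IMP. Paics, which carries out consecutive steps in the middle of the route, was the other gene whose groups did not overlap. It lies at chr5:76951307-76967509, plus strand (GRCm38) and had 13127, 7103 and 11926 normalized counts in the lines labelled Rag1KO, against 15079, 13972 and 19332 in the lines labelled WT. Every WT-labelled line was above every Rag1KO-labelled line, though WT line 4 and Rag1KO line 1 lay close together. The means were 10719 ± 3189 in the Rag1KO-labelled lines and 16128 ± 2830.1 in the WT-labelled lines (SD, n = 3 each), with a log2 fold change of −0.62 (SE 0.29, 95% interval −1.33 to 0.082). Its adjusted p over all genes was 0.85 in limma's fit, where the unadjusted value was 0.0736, and its log2 fold change without WT line 6 was −0.49, and −0.35 without Rag1KO line 3.

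Paics stands head to head with Ppat on chromosome 5, on opposite strands, and their annotated spans share 272 bases. Both promoter windows (RefSeq, GRCm38.p6; Paics chr5:76951052-76951351, plus strand; Ppat chr5:76951529-76951828, minus strand) are shown because the pair faces a shared stretch. Capitals mark an E-box (CACGTG) or CCAAT on either strand.
Paics: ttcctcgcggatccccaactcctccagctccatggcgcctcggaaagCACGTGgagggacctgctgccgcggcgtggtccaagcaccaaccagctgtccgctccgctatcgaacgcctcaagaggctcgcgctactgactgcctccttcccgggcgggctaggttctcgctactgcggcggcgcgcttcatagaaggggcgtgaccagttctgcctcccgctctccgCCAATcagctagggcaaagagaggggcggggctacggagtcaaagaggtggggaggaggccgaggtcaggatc
Ppat: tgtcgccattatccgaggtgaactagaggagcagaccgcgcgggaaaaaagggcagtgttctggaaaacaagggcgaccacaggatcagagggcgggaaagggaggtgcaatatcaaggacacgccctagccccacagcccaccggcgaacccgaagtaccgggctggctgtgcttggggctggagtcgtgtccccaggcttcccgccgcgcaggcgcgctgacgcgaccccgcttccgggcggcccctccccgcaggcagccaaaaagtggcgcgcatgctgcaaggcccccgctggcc
The Paics window held an E-box, whose letters are read by Myc-family proteins among others, and a CCAAT; the Ppat window held neither. E-box letters occurred in 4 of 40 windows (10.0%), those of Atic, Impdh2, Paics and Tyms, and in 7.15% of all windows. The search for TGATGNAAT, a composite bound by Atf4 with Cebp proteins, found 0 of 40 against 0.965% of all windows, and that for TTTGGCGC, an E2f element, found 0 against 0.514%. TGACNNNGC, the Nrf2 element, was found in 6 of 40 windows (15.0%), against 12.4% of all.

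Ppat had 1392, 696 and 1373 in the Rag1KO-labelled lines, against 1547, 1273 and 2349 in the WT-labelled lines, with 1 line low, Rag1KO 3, and 1 high, WT 6, and a log2 fold change of −0.60 (SE 0.38), or −0.35 without WT line 6. Ppat and Paics each overlap a protein-coding gene on the other strand, as do 6 more of the 39 (Aldh1l2, G6pdx, Impdh2, Rpe, Shmt1 and Shmt2), and 19 of the 39 overlap an annotated gene of any type there. The strand setting of the authors' counting is not given in the sources used here, so reads from the overlapping stretches could fall to either. Adsl, the lyase that acts late in the route, had 3560.1, 3192 and 3079.7 in the Rag1KO-labelled lines, against 3962, 3171 and 6627 in the WT-labelled lines, so 5 lines lay within 3080 to 3962 and WT line 6 stood apart; the log2 fold change was −0.42, or −0.12 without it. The other enzymes of the route, Gart, Pfas and Atic, had log2 fold changes of −0.25, −0.28 and −0.32. Without WT line 6 they were at 0.032, −0.018 and −0.043.

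Guanine nucleotides are made from IMP by Impdh1 or Impdh2 and then Gmps. Impdh1 was the 1 purine gene higher in the Rag1KO-labelled lines, with 3899, 3549 and 2811 in the Rag1KO-labelled lines, against 3017, 2687 and 1391 in the WT-labelled lines, a log2 fold change of 0.60 (SE 0.34) that shrank to 0.25 without WT line 6. Impdh2 was the more abundant of the pair per kilobase of exon and had 7187, 5846 and 11256 in the Rag1KO-labelled lines, against 7042, 7141 and 12896 in the WT-labelled lines. Gmps, which makes GMP, had a log2 fold change of −0.17, or 0.085 without WT line 6. Over the 9 purine genes, 0 passed limma's adjusted p and 8 were lower in the Rag1KO-labelled lines (5 without WT line 6). WT line 6 was the highest line for 8 of 9, and the median log2 fold change of −0.28 became −0.018 without it.

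Pyrimidine synthesis starts on the multifunctional Cad, passes through Dhodh on the inner mitochondrial membrane and Umps, and is completed by Ctps, while Tyms makes thymidylate and Rrm1 with Rrm2 reduces ribonucleotides to deoxynucleotides. With all lines this group's median was the nearest to 0 of the 5: the median log2 fold change was −0.024 with all lines and 0.11 without WT line 6, 0 of 7 passed limma's adjusted p, and 5 of 7 were lower in the Rag1KO-labelled lines. Without WT line 6 that count turned round, with 1 of 7 lower and 6 higher. Ctps was the steadiest of the 39, with its highest line 1.37 times its lowest. Cad had 9665, 5084 and 7581 in the Rag1KO-labelled lines, against 8703, 5459 and 8833 in the WT-labelled lines, with both groups holding 1 low line. Dhodh, Umps and Tyms had log2 fold changes of −0.27, −0.086 and −0.0085, and of −0.15, 0.11 and 0.22 without WT line 6.

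Rrm1, the large subunit of ribonucleotide reductase, lies at chr7:102441695-102469771, plus strand (GRCm38) and had the lowest p of its group, with 9111, 8675 and 11045 normalized counts in the lines labelled Rag1KO, against 8955, 7716 and 8921 in the lines labelled WT. Its log2 fold change was 0.17 (SE 0.17), and its highest line was 1.43 times its lowest. Rrm2, the small subunit that cells make in S phase, lies at chr12:24708241-24714146, plus strand (GRCm38) and had 17957, 9557 and 2049.9 normalized counts in the lines labelled Rag1KO, against 6722, 3271 and 3396 in the lines labelled WT. Rag1KO line 1 was the highest and Rag1KO line 7 the lowest of all 6, 8.76-fold apart, and the log2 fold change of 0.75 had a standard error of 0.82. It was 0.072 without Rag1KO line 1 and 1.64 without Rag1KO line 7. Mki67, a marker of cycling cells, was at 11818, 4325 and 12208 in the Rag1KO-labelled lines, against 8489, 6143 and 6824 in the WT-labelled lines. Rag1KO line 7 was thus low for Rrm2 and highest for Mki67. Mki67 was the exception in this: of the 15 proliferation genes, Rag1KO line 7 was highest for 1, Rag1KO line 1 for 9 and WT line 6 for 5. The promoter windows of both subunits (RefSeq, GRCm38.p6; Rrm1 chr7:102441445-102441744, plus strand; Rrm2 chr12:24708004-24708303, plus strand) are shown for this contrast between subunits of the same enzyme, with CCAAT in capitals.
Rrm1: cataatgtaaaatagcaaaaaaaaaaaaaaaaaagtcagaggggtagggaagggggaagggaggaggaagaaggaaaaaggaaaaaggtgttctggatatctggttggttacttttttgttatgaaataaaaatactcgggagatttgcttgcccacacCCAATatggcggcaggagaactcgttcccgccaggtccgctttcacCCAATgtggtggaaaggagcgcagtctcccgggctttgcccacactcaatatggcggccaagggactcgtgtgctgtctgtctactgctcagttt
Rrm2: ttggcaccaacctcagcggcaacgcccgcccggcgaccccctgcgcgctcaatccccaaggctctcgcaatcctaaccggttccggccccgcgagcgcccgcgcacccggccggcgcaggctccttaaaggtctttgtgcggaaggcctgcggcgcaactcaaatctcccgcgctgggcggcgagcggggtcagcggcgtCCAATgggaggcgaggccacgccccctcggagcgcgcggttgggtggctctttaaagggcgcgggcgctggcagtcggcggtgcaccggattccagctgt
Both windows held CCAAT letters and neither held an E-box or the E2f letters searched. The Nrf2 letters TGACNNNGC, not in capitals, occurred in the Rrm2 window and not in that of Rrm1.

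**Figure D3:**
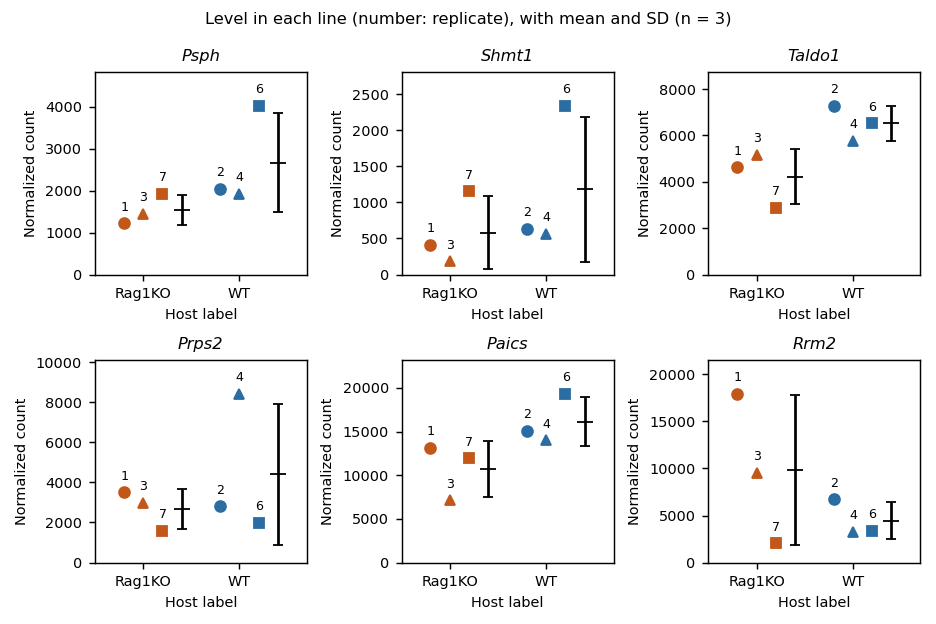
Normalized counts in each line for genes described in full, 1 panel a gene, with lines labelled Rag1KO left of WT; points are single lines with their number, and the black mark is the group mean with its SD (n = 3). Taldo1 and Paics show separate groups, while Rrm2 spans 8.76-fold within the Rag1KO-labelled lines.

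**Figure D4:**
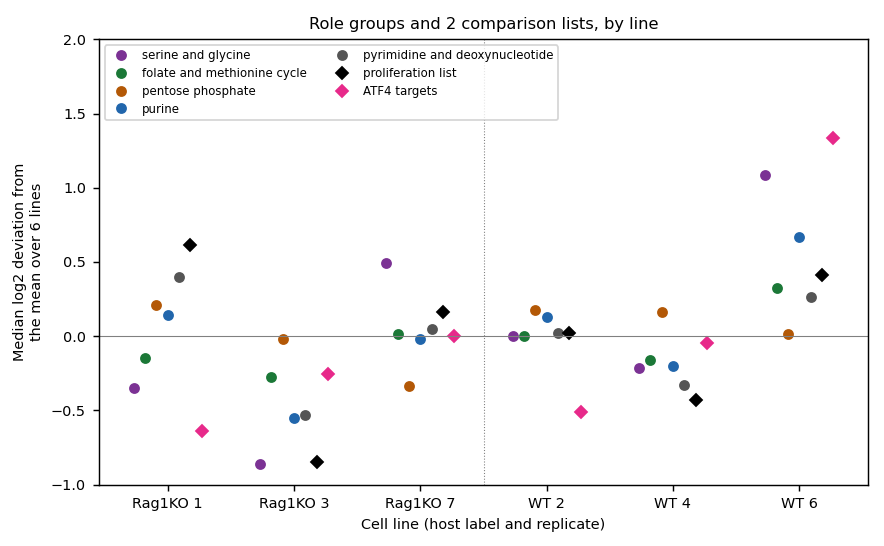
Median over the genes of each group of log2(normalized count + 1) minus the gene's mean over 6 lines, by line, with Rag1KO-labelled lines first. WT line 6 is highest for the serine, folate and purine genes and the Atf4 targets, at 1.09, 0.32, 0.67 and 1.33. Rag1KO line 3 is lowest for the serine, folate, purine and pyrimidine genes, at −0.86, −0.28, −0.55 and −0.53, and also for the proliferation list, at −0.85.

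Related enzymes, and for Rrm2 and Rrm1 the subunits of the same enzyme, were compared as log2 ratios within a line. For these, 1 was added to both normalized counts and there was no scaling to gene length. Of 7 pairs, 0 passed p = 0.05 between the groups in a two-sided exact permutation test, whose smallest possible p with 3 against 3 is 0.1. The mitochondrial to cytosolic ratio of Shmt2 to Shmt1 was 33.1, 69.9 and 9.79 in the Rag1KO-labelled lines, against 32, 22.3 and 14.7 in the WT-labelled lines, a difference in log2 ratio of 0.37 (exact permutation p = 0.8, adjusted p = 0.933). Impdh1 to Impdh2 was 0.543, 0.607 and 0.25 in the Rag1KO-labelled lines, against 0.429, 0.376 and 0.108 in the WT-labelled lines, and differed by 0.75 (exact permutation p = 0.5, adjusted p = 0.933). The ratio of Rrm2 to Rrm1 was 1.97, 1.1 and 0.186 in the Rag1KO-labelled lines, against 0.751, 0.424 and 0.381 in the WT-labelled lines, and differed by 0.58 (exact permutation p = 0.6, adjusted p = 0.933). The widest was Aldh1l2 to Aldh1l1, at 597, 3.31 and 12.8 in the Rag1KO-labelled lines and 59.2, 18.6 and 2182 in the WT-labelled lines, with exact permutation p = 0.5. For Mthfd2 and Mthfd1l over Mthfd1 and Prps1 over Prps2 the differences were −0.14, 0.22 and 0.16, with exact permutation p of 0.8, 0.6 and 1.

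**Figure D5:**
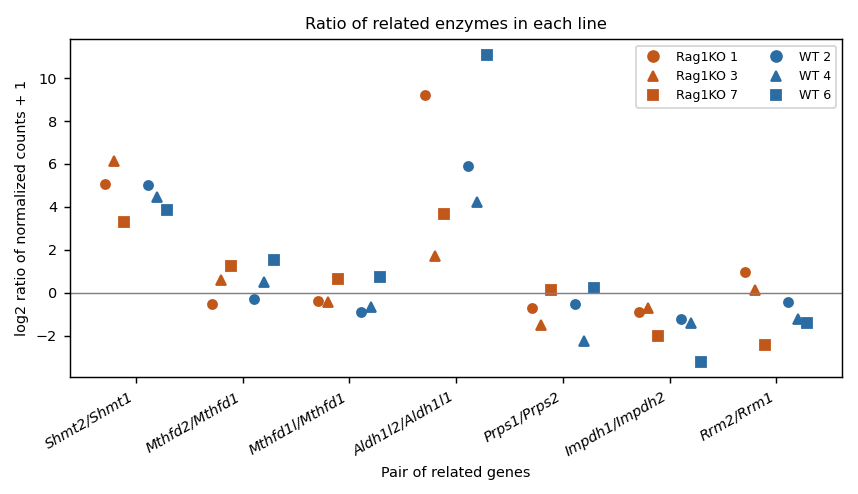
Log2 ratio of each of 7 enzyme pairs in each line, with 1 added to both values; each point is a line, and lines labelled Rag1KO are left of those labelled WT. The groups overlap in every pair, most widely for Aldh1l2 to Aldh1l1.

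Neighbouring genes of these pathways, in 4 lists of 78 symbols, gave 67 tested genes. Of these, limma and edgeR called 0, beside 0.0062% and 0.0% of all tested genes, and DESeq2 called 1, beside 0.41%. At an unadjusted p under 0.05, limma singled out 3 of the 67, Amt, Sardh and Dut, beside 4.67% of all tested genes. Amt, the aminomethyltransferase of the glycine cleavage system, lies at chr9:108296853-108302302, plus strand (GRCm38) and had 244, 213 and 224 normalized counts in the lines labelled Rag1KO, against 93.7, 101 and 83.6 in the lines labelled WT. Rag1KO-labelled lines were all above WT-labelled lines, with means of 227 ± 15.9 in the Rag1KO-labelled lines and 92.9 ± 8.92 in the WT-labelled lines (SD, n = 3 each) and a log2 fold change of 1.28 (SE 0.32). DESeq2 gave it an adjusted p of 0.0014, limma 0.85 and edgeR 0.891, so only DESeq2 of these 3 called it; with each line left out in turn its log2 fold change stayed within 1.21 to 1.35. Sardh, which feeds folate with carbon units from sarcosine in mitochondria, was also higher in every Rag1KO-labelled line, with 3231, 2469 and 5240.1 in the Rag1KO-labelled lines, against 1982, 2093 and 1313 in the WT-labelled lines and an adjusted p of 0.85 by limma.

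Dut, which removes dUTP before it enters DNA, had 2602, 1549 and 2040.2 in the Rag1KO-labelled lines, against 3871, 2661 and 7341 in the WT-labelled lines. Its 3 values labelled Rag1KO were below its 3 values labelled WT, and limma's adjusted p was 0.85 for a log2 fold change of −1.07, or −0.67 without WT line 6. In the 67 genes, 35 were lower and 32 higher in the Rag1KO-labelled lines, with a median of −0.029. Without WT line 6, 41 were lower and 26 higher, with a median of −0.11. The groups did not overlap for 1 of the 67 that was lower, Dut, beside 6.49% of all tested genes. They did not overlap for 5 that were higher, Amt, Sardh, Fpgs, Ada and Gmpr, beside 5.6% of all tested genes. Uck2, a uridine-cytidine kinase, followed Dut in p among the pyrimidine genes and had 4590.3, 3554 and 3552 in the Rag1KO-labelled lines, against 6105, 4107 and 6175 in the WT-labelled lines.

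Gmpr and Gda, a GMP reductase and a guanine deaminase, had the lowest p of the other purine genes. Gmpr had 408, 803 and 401 in the Rag1KO-labelled lines, against 401, 138 and 246 in the WT-labelled lines, so its groups were separate by less than 1 normalized count. Gda had 54.6, 1161 and 135 in the Rag1KO-labelled lines, against 35.2, 69.5 and 1.76 in the WT-labelled lines, with Rag1KO line 3 alone high and a log2 fold change of 3.43 (SE 1.62), or 2.03 without WT line 6. In the pentose list, Rbks, the ribokinase, had 27.8, 38.2 and 14.5 in the Rag1KO-labelled lines, against 29.2, 41.5 and 75.7 in the WT-labelled lines. H6pd, the oxidative enzyme of the endoplasmic reticulum, had 2735, 7902 and 7394 in the Rag1KO-labelled lines, against 3517, 4819 and 4631 in the WT-labelled lines, and both pentose genes overlapped between the groups.

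The transcription factors and kinases known to act on these pathways were lower in the Rag1KO-labelled lines in 7 of 7 cases, with 0 called by limma and 0 at an unadjusted p under 0.05; without WT line 6 the count was 5 of 7. Atf4, the stress-response factor that induces the serine genes, had 13212, 16841 and 14231 normalized counts in the lines labelled Rag1KO, against 18029.5, 18188 and 28248 in the lines labelled WT. Its groups did not overlap, which held for 1 of the 7, beside 6.49% of all tested genes that were wholly lower. Its log2 fold change was −0.52 (−0.30 without WT line 6) and limma's adjusted p was 0.85. Nfe2l2, which encodes Nrf2, had 6508, 9258 and 5403 in the Rag1KO-labelled lines, against 9720.2, 8644 and 25281 in the WT-labelled lines, a log2 fold change of −0.90 (−0.41 without WT line 6), and Myc had one of −0.47 (−0.19 without that line). Of 10 targets of Atf4, 10 were lower in the Rag1KO-labelled lines with a median of −0.79, but WT line 6 was highest for 9 of 10 and the median without it was −0.030, with 6 of 10 lower. The lowest p values were those of Ddit3, the factor CHOP, with 2539, 3652 and 2562 in the Rag1KO-labelled lines, against 3893, 4554 and 8800.4 in the WT-labelled lines, and Chac1, which degrades glutathione, with 1080.0, 1169 and 1504 in the Rag1KO-labelled lines, against 1962, 1129.7 and 4660.2 in the WT-labelled lines. Neither passed limma's adjusted p. Ddit3 alone of the 10 had an unadjusted p under 0.05 by limma, beside 4.67% of all tested genes. Ddit3 was below its WT-labelled values in all 3 Rag1KO-labelled lines, which held for 1 of the 10, beside 6.49% of all tested genes. Targets of Nrf2 had a median of −0.044, or −0.16 without WT line 6, with Gclc and Me1 at −0.36 and 0.68 (−0.16 and 0.050 without it). The 15 proliferation genes had a median of 0.0067 with 8 higher in the Rag1KO-labelled lines, or 0.18 with 13 higher without WT line 6. Ccnb1 and Mcm2 among them were at 0.52 and −0.58, or 0.72 and −0.038 without that line. limma called 0 genes of either list, and 0 at an unadjusted p under 0.05.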

How the data were processed

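RNA-seq libraries of the 6 lines were made with a TruSeq Stranded RNA kit, per the labels' protocols. The submitters' processing notes name STAR 2.7.9a, Trim Galore 0.6.6, DESeq2 and FastQC, with mm10 as the build; the counter, its annotation and its strand setting are not given in the sources used here. Each deposited file holds a signal per gene, which the authors made by dividing whole reads by a size factor: every value came back to a whole read within 0.01 reads. No column was left unmapped (0 of them). Low genes were removed with filterByExpr (edgeR) applied to the recovered reads, and log2(signal + 1) was fitted with limma 3.58.1 (trend; two-sided; Benjamini-Hochberg over all 16137 genes; threshold 0.05), in R 4.3.3, with edgeR 4.0.16 and DESeq2 1.42.0 on recovered reads as alternatives; figures used Python 3.11.15 and matplotlib 3.10.9. Coordinates and exon lengths come from GENCODE M21 on GRCm38, the same build as mm10. The symbol Ppat stands on 2 identifiers in the files, of which the one GENCODE gives that name was used; Pgm2 was not matched. Scripts were tested on simulated data. A count of 0 allows up to 3 reads, and such limits cover counting error only.

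Values in every line were to be given for the gene of lowest p in each role group, for genes past the threshold and for genes whose groups did not overlap; in other lists, for the 2 genes of lowest p. Other genes given line by line were picked after their values were seen. The genes and lists were chosen with earlier results of these data known. An item of the planned marker lists is not reported here.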

Additional observations from a re-analysis of the deposited data

How the results depend on the processing

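Over all genes limma called 1; edgeR called 0, limma-voom 0, DESeq2 65, and leaving out single lines gave 0 to 5, the 5 without WT line 6. Of the 39 genes, 0 passed the threshold under any of the 14 alternatives run. The count with non-overlapping groups, 2 lower in the Rag1KO-labelled lines, was 3 with TMM scaling, beside 6.84% of all tested genes, and ranged from 2 to 9 with a line left out, beside 10.8% to 12.2%. The count higher, 0, was 0 with TMM scaling, beside 5.42%, and ranged from 0 to 2 with a line left out, beside 9.4% to 12.5%. The pentose phosphate median of −0.34 ranged −0.55 to −0.24 with a line left out. With a line left out, 17 of the 39 log2 fold changes turned sign under some setting and 22 under none; 12 turned without WT line 6. Their ranges were Psat1 −0.85 to 0.18, Gldc −0.29 to 2.51, Mthfd1l −0.61 to 0.34, Aldh1l1 −0.20 to 4.11, Mtr −0.057 to 0.22, Mat2a −0.45 to 0.016, G6pdx −0.33 to 0.17, Tkt −0.47 to 0.40. For the others they were Rpe −0.43 to 0.075, Prps2 −0.93 to 0.11, Gart −0.49 to 0.032, Impdh2 −0.42 to 0.14, Gmps −0.32 to 0.087, Cad −0.29 to 0.19, Umps −0.43 to 0.17, Ctps −0.16 to 0.065, Tyms −0.24 to 0.37. With all lines kept, Tkt turned to −0.082 by edgeR and −0.084 by DESeq2, and Tyms to 0.051 by edgeR, 0.049 by DESeq2 and 0.011 by limma-voom. Differences in log2 ratio that turned sign ranged −0.28 to 1.14 for Shmt2 to Shmt1, −0.57 to 0.34 for Mthfd2 to Mthfd1, −0.14 to 0.72 for Mthfd1l to Mthfd1, −0.54 to 0.71 for Prps1 to Prps2, −0.13 to 1.57 for Rrm2 to Rrm1. The cause was not tested. Replicate numbers are not shared between the groups, so no paired analysis was possible because no number pairs the lines.

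With 3 lines a group the 95% interval reached a median of 1.78-fold on either side of the fitted value for the 39 genes and 1.97-fold over all tested genes. Few reads limited Gldc and Aldh1l1, whose lowest lines, WT 2 and WT 6, held 1 and 6 reads. Those were the deepest libraries, with 62998051 and 62455617 reads over genes. The next lowest of the 39, Shmt1, held 158 reads in its lowest line.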

Other observations

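WT line 6 was set apart in salvage and sulphur genes too, chosen after their values were seen. Cth, which makes cysteine from cystathionine, had 242, 519 and 1241 normalized counts in the lines labelled Rag1KO, against 453, 481 and 7890.5 in the lines labelled WT. Upp1, which splits uridine, had 72.8, 9.27 and 29.1 in the Rag1KO-labelled lines, against 42.3, 22.2 and 1489.8 in the WT-labelled lines. In the other direction, Ada, the adenosine deaminase, had 702, 798 and 1496 in the Rag1KO-labelled lines, against 318, 690.4 and 30.8 in the WT-labelled lines, Adk, the adenosine kinase, had 8436, 7748 and 5328 in the Rag1KO-labelled lines, against 9102, 7658 and 1762 in the WT-labelled lines, and Pnp, the purine nucleoside phosphorylase, had 1985, 2109.9 and 2422 in the Rag1KO-labelled lines, against 2519.7, 2545 and 937 in the WT-labelled lines. Line 6 was thus highest for Cth and Upp1 and lowest for Ada, Adk and Pnp.

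Values of 4 genes near Rrm2 on chromosome 12 were read after the spread of Rrm2 among the Rag1KO-labelled lines had been seen. Cys1 had 1633, 1401 and 185 normalized counts in the lines labelled Rag1KO, against 396, 585 and 0 in the lines labelled WT, and Klf11 had 879, 971 and 401 in the Rag1KO-labelled lines, against 445, 794 and 272 in the WT-labelled lines. Taf1b had 708, 645 and 367 in the Rag1KO-labelled lines, against 688, 695 and 881 in the WT-labelled lines, and Kidins220 had 14183, 13958 and 5931 in the Rag1KO-labelled lines, against 13677, 12518 and 4913 in the WT-labelled lines. Line 7 was the lowest of the Rag1KO-labelled lines for each of these 4, as it was for Rrm2; WT line 6 was the lowest of all lines for Cys1, Klf11 and Kidins220 and the highest for Taf1b.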
